A study of Mus musculus with 6 samples.

Results

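The genes described here are those of the mouse mitochondrial genome: every row of the deposited gene table whose symbol starts with mt-. The rule found 37 genes of 53715, namely 13 protein-coding genes, 2 rRNA genes and 22 tRNA genes. All 37 identifiers matched GENCODE mouse release 21 (GRCm38), all lie on chromosome M, and all 37 passed the filter on low counts that left 26559 genes for testing. RNA came from cells sorted as pericytes, the mural cells of capillaries, by the gate CD146+ CD45- CD31-, from the gastrocnemius and soleus of male C57BL/6J wild-type mice aged 14 weeks. In the stimulated group (n = 3) these muscles had performed 40 contractions, 20 eccentric and 20 concentric, under electrical stimulation lasting about 10 minutes, and cells were taken 3 hours later. The sham group (n = 3) received no stimulation. The libraries were made from total RNA with a strand-marking kit for small inputs, which records more than polyadenylated RNA.

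Mammalian mitochondrial DNA is transcribed from both strands into long precursors. In these, tRNA sequences stand between most of the mRNAs and rRNAs, and excision of the tRNAs by RNase P and ELAC2 releases the neighbouring RNAs. The rRNAs form the mitochondrial ribosome, the tRNAs serve it, and all the mRNAs encode subunits of respiratory complexes I, III and IV and of the ATP synthase, whose other subunits are encoded in the nucleus. Pieces of mitochondrial DNA have also been copied into nuclear chromosomes, where they are annotated as pseudogenes.

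How the genes lie decides what can be counted for each. The annotation puts mt-Nd6 and 8 tRNAs on the minus strand and the other members on the plus strand. The reading frames of mt-Atp8 and mt-Atp6 share 43 bases, those of mt-Nd4l and mt-Nd4 share 7, and mt-Nd5 and mt-Nd6 share 14 from opposite strands. The 2 windows below show the first 2 of these overlaps, from the GENCODE transcripts (GRCm38, plus strand, chrM:7907-7989 and chrM:10147-10193), with the shared bases in capitals. A read inside the 43 shared bases belongs to both mt-Atp8 and mt-Atp6, whereas the 7 bases of mt-Nd4l and mt-Nd4 are too few to hold a read.
mt-Atp8 and mt-Atp6: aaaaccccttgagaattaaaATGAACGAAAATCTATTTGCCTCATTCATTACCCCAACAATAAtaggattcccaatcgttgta
mt-Nd4l and mt-Nd4: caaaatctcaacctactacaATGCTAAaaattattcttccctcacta

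A stretch of chromosome 1 carries annotated unprocessed pseudogenes, on the minus strand, that copy 7 of the 13 protein-coding genes, each at 99% identity or more over the bases aligned. Gm10925 (chr1:24613974-24614651, copy of mt-Atp6), Gm28661 (chr1:24614885-24615565, mt-Co2), Gm28437 (chr1:24613189-24613971, mt-Co3), Gm28439 (chr1:24611535-24612410, the first 876 bases of mt-Nd4) and Gm10222 (chr1:24612407-24612700, mt-Nd4l) differed from the gene at no base of their length. Gm10222 was not on the list of copies and was added after the search. Gm28438 (chr1:24612775-24613119) differed from mt-Nd3 at 1 base, written T3C with positions counted from the first base of the gene and the mitochondrial base first. Gm29216 (chr1:24615706-24616197), which copies the end of mt-Co1, differed from it at 6 bases, T1056A, C1057T, A1059G, A1060G, C1062A and A1066T. Over its whole length of 492 bases Gm29216 was 98.8% identical, and over the 483 bases aligned 99.8%. No copy at this identity was found for mt-Nd1, mt-Nd2, mt-Nd5, mt-Nd6, mt-Cytb, mt-Rnr1 or mt-Rnr2. The starts of both imperfect copies are shown beside their genes, with differing bases in capitals. The windows are chrM:9459-9481 and chrM:6381-6413 (plus strand), and chr1:24613097-24613119 and chr1:24616165-24616197 (minus strand). They hold all the bases that differ within the length of each copy. Bases of mt-Nd3 and mt-Co1 that lie outside the copies also set gene and copy apart.
mt-Nd3: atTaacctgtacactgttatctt
Gm28438: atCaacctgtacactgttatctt
mt-Co1: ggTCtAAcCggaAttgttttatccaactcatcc
Gm29216: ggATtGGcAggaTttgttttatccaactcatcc

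The tRNAs are each 59 to 75 bases long. Those named most often below are printed whole from the same source (chrM:9391-9458, chrM:7700-7764 and chrM:3706-3774 on the plus strand; chrM:3772-3842 on the minus strand; chrM:11671-11741 on the plus strand). They are the tRNAs with the most and the fewest reads per length, and 3 whose group values are discussed below. Of these 3, mt-Tk and mt-Ti are shown for their small unadjusted p. mt-Tq is shown for groups that did not overlap in counts scaled to the size of the library. No part of the sequences is set in capitals.
mt-Tg: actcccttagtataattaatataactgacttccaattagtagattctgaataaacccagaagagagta
mt-Tk: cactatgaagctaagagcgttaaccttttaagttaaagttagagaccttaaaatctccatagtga
mt-Ti: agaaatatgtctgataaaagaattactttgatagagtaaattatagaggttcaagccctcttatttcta
mt-Tq: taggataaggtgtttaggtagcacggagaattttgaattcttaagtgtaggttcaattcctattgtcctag
mt-Tl2: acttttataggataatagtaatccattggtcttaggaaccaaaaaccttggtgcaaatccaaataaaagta

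The tested genes held 17454138 to 23658612 rounded counts per library. Every library held marker RNA of cell types other than pericytes. The 10 listed pericyte markers (Pdgfrb, Rgs5, Kcnj8 and others) summed to 163 to 689 CPM (counts scaled to the size of the library), against 1568 to 6989 CPM for 10 endothelial and 329 to 2209 CPM for 10 lymphocyte markers. In such bulk RNA fewer cells of a type and less RNA per cell cannot be told apart. Endothelial markers were lower in the stimulated libraries (1568 to 2292 CPM) than in sham libraries (2818 to 6989 CPM), with all 10 fold changes negative, and 8 neutrophil markers were higher (141 to 199 against 54.2 to 69.4 CPM), with all 8 positive. Fold changes were also negative for all 10 pericyte markers (163 to 400 against 326 to 689 CPM) and 5 of 5 smooth muscle markers (59.4 to 150 against 116 to 320 CPM). They were negative for 8 of 8 macrophage (381 to 580 against 279 to 975 CPM) and 6 of 6 fibro-adipogenic markers (472 to 1245 against 824 to 1504 CPM). Fold changes were positive for all 10 lymphocyte markers (1934 to 2209 against 329 to 2112 CPM) and 12 of 12 myofibre markers (57.3 to 190 against 35.9 to 57.3 CPM). They were also positive for the 4 satellite cell markers tested. The 5 listed satellite cell markers summed to 3.32, 2.86 and 33.5 CPM in stimulated and 17.7, 10.3 and 5.67 CPM in sham libraries, so only stimulated replicate 3 was above the sham libraries. None of these markers was called (edgeR's quasi-likelihood test). Stimulated replicate 3 held the most RNA of 12 myofibre markers, 190 CPM against 35.9 to 67.2 CPM in the other libraries, and sham replicate 2 the least lymphocyte RNA, 329 CPM against 1589 to 2209 CPM. No marker gene of these lists was at 0 in every library. These values move with the libraries that stand out below, and their part in the results was not tested.

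Mitochondrial RNA made up 13.8%, 10.4% and 14.0% of the estimated reads in stimulated replicates 1 to 3, and 13.4%, 10.2% and 11.9% in sham replicates 1 to 3. The groups overlapped, with means of 12.7% ± 2.0 and 11.8% ± 1.6 (SD, n = 3 each). Most of it was rRNA, at 83.8% to 87.1% of mitochondrial counts per library. The rRNA share of all estimated reads was 12.0%, 8.92% and 11.9% in stimulated libraries and 11.2%, 8.84% and 10.3% in sham libraries. The mRNA share was 1.76%, 1.42% and 2.12% in stimulated libraries and 2.14%, 1.40% and 1.56% in sham libraries. Both classes were lowest in sham replicate 2, closely followed by stimulated replicate 2, so the spread within each group was wider than the difference between the group means. For mRNAs these were 1.77% ± 0.35 and 1.70% ± 0.39, and for rRNAs 10.9% ± 1.7 and 10.1% ± 1.2 (SD, n = 3 each). Counting error was far smaller: the widest 95% Wilson interval reached 0.0149 percentage points to either side, covering counting error only.

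The tRNA share was 0.0236%, 0.0175% and 0.0231% in stimulated libraries and 0.0192%, 0.0104% and 0.0146% in sham libraries. Set against the mitochondrial mRNAs of the same library, tRNAs gave 13.4, 12.3 and 10.9 counts per 1000 mRNA counts in stimulated replicates 1 to 3 and 8.98, 7.44 and 9.38 in sham replicates 1 to 3. On this measure the groups did not overlap, with means of 12.2 ± 1.3 and 8.60 ± 1.03 (SD, n = 3 each). The separation depended on how reads were counted. From transcript-level reads the ratio was 10.3 to 14.4 in stimulated and 7.65 to 10.8 in sham libraries, which overlap, and with the counts of the chromosome 1 copies added to the mRNAs it was 9.93 to 12.4 and 7.003 to 9.15, which do not. Per 1000 mitochondrial rRNA counts, the tRNAs gave 1.97, 1.96 and 1.95 in stimulated libraries and 1.72, 1.17 and 1.41 in sham libraries. That ratio also stayed apart in transcript-level reads, at 1.83 to 2.52 against 1.30 to 1.82, where the nearest libraries of both groups lay almost level. An exact two-sided permutation of 3 against 3 libraries cannot give a p below 0.1, so these ratios, which were picked out after their values were seen, carry no test.

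**Figure D1:**
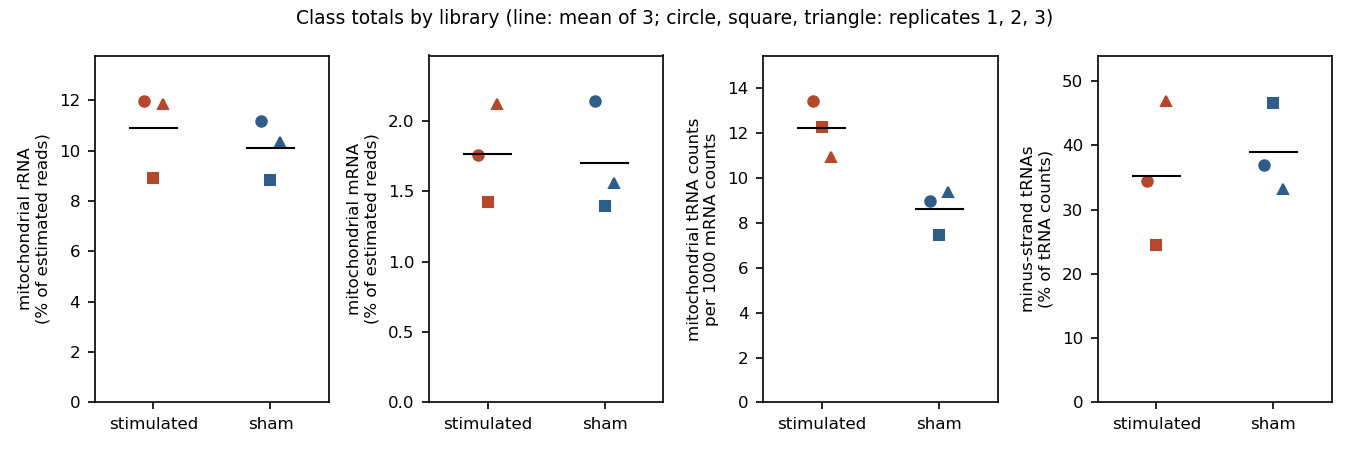
Class totals per library: mitochondrial rRNA and mRNA as percent of all estimated reads, tRNA counts per 1000 mitochondrial mRNA counts, and minus-strand tRNAs as percent of all mitochondrial tRNA counts. Points are libraries (red stimulated, blue sham) and lines are means of 3; the groups overlap in the rRNA, mRNA and minus-strand panels and not in the tRNA panel, where stimulated libraries lie at 10.9 to 13.4 and sham libraries at 7.44 to 9.38.

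Levels of different genes are compared per length, as RPKM, the reads of a gene divided by its annotated length and by the depth of the library. The level of a class was taken as its summed reads over its summed length. Across libraries this level was 31495 to 51741 RPKM for rRNAs, 1230 to 2040 for mRNAs and 75.0 to 165 for tRNAs. By RPKM, rRNA thus exceeded mRNA 22.9 to 31.1 times and mRNA exceeded tRNA 9.15 to 17.2 times. These ratios depend on the length used. The deposited TPM divides reads by an effective length, 3 bases for every tRNA. Of TPM, mRNAs took a mean of 0.391% and tRNAs 0.323% in stimulated libraries, and 0.403% and 0.276% in sham libraries. How fully these libraries recovered RNA as short as a tRNA was not tested. mt-Rnr2, the large-subunit rRNA, had 59586, 37396 and 55752 RPKM in stimulated replicates 1 to 3 and 52609, 39036 and 42357 RPKM in sham replicates 1 to 3. mt-Rnr1, the small-subunit rRNA, had 36395, 21720 and 45095 RPKM in stimulated and 31769, 25960 and 24855 RPKM in sham libraries. Stimulated replicate 2 was the lowest library for both on this scale. The estimated counts of mt-Rnr2 were 2.64, 2.74 and 2.11 times those of mt-Rnr1 in stimulated libraries and 2.71, 2.60 and 2.76 times in sham libraries. Only stimulated replicate 3 left the narrow band of 2.60 to 2.76 that held the other libraries.

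Among the mRNAs the level per length fell over a 33.0-fold range of means. mt-Atp6, a proton-channel subunit of the ATP synthase, led with a mean of 4059 RPKM, and mt-Co1, the catalytic subunit of complex IV, followed with 3365 RPKM. The order between them held in 6 of 6 libraries, although their ranges over libraries overlapped. The order of the mRNAs also depends on the length used. By mean deposited TPM, mt-Atp8 led with 1761, against 527 for mt-Atp6 and 311 for mt-Co1. Its effective length was 10 bases, against 204 annotated. mt-Atp6 had 4346, 3612 and 3964 RPKM in stimulated libraries and 6328, 2877 and 3225 RPKM in sham libraries, so its highest and lowest libraries were both sham. mt-Co1 was steadier, at 3470, 2910 and 3844 RPKM in stimulated and 3914, 2859 and 3196 RPKM in sham libraries.

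The middle of the order was mt-Atp8 (1812 RPKM), mt-Cytb of complex III (1632 RPKM), mt-Nd1 (1579 RPKM), mt-Co2 (1434 RPKM) and mt-Co3 (1117 RPKM). mt-Atp8 exceeded mt-Cytb in 3 of 6 libraries, so these neighbours were not ordered. The complex I genes mt-Nd4 (967 RPKM), mt-Nd5 (893 RPKM), mt-Nd2 (838 RPKM), mt-Nd6 (750 RPKM) and mt-Nd4l (696 RPKM) came next. mt-Nd6, the minus-strand mRNA, was above mt-Nd4l in 3 of 6 libraries, again without an order. Every other pair of neighbours kept its order in 5 or 6 libraries, yet each pair had overlapping ranges except mt-Nd4l and mt-Nd3. mt-Nd3, another complex I subunit, was lowest by far in every library, with 119, 62.4 and 201 RPKM in stimulated and 137, 133 and 85.5 RPKM in sham libraries.

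**Figure D2:**
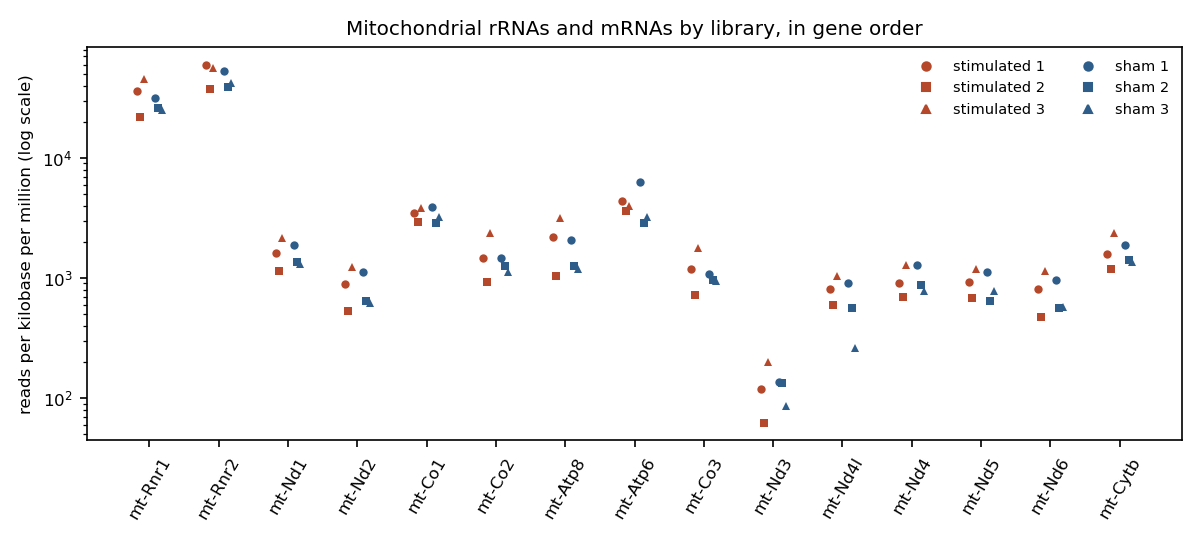
RPKM (log scale) of the 2 rRNAs and 13 mRNAs, in their order along chromosome M, for 3 stimulated (red) and 3 sham (blue) libraries; circles, squares and triangles are replicates 1, 2 and 3. The rRNAs stand at 21720 to 59586, mt-Nd3 at 62.4 to 201, and the sham replicate 3 point of mt-Nd4l falls below its other libraries at 262.

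As shares of mitochondrial mRNA counts, the 7 complex I genes took 32.5% to 34.3% in every library and mt-Cytb 9.65% to 11.5%. The 3 complex IV genes took 39.0%, 40.6% and 39.6% in stimulated and 35.1%, 41.3% and 42.7% in sham libraries. The ATP synthase pair took 18.5%, 16.2% and 15.2% in stimulated and 21.01%, 14.6% and 13.8% in sham libraries. The complex I share barely moved between libraries, while sham replicate 1 held the lowest complex IV and the highest ATP synthase share.

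The low level of mt-Nd3 and several outlying libraries coincided with counts given to the chromosome 1 copies. Of the counts on mt-Nd3 and Gm28438 together, 70.9%, 69.0% and 66.6% stood on the copy in stimulated replicates 1 to 3, and 68.1%, 61.8% and 69.98% in sham replicates 1 to 3. For mt-Co3 and Gm28437 the share on the copy was 27.9%, 19.8% and 17.5% in stimulated and 23.9%, 11.5% and 15.9% in sham libraries. These shares were spread over all 6 libraries. Other pairs switched between libraries instead. For mt-Nd4 and Gm28439 the copy held 12.95%, 0% and 22.0% of the counts in stimulated and 3.86%, 0% and 0% in sham libraries. For mt-Co1 and Gm29216 it held 11.6%, 0% and 18.4% in stimulated and 8.98%, 13.8% and 0.634% in sham libraries. The most abrupt case was mt-Nd4l and Gm10222, where the copy held 57.2% in sham replicate 3 and at most 0.0185% in each other library. Gm28661 held 2.14% to 11.8% of the counts it shares with mt-Co2, and Gm10925 at most 1.10% of those it shares with mt-Atp6.

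Over the copied bases gene and copy are identical or nearly so, and there the counts cannot say which locus made the RNA. The shares above give only how the counts were split, and they do not bound the uncertainty of these genes. The copies cover 31.3% of mt-Co1 and 63.6% of mt-Nd4, so the remainder of these 2 genes lies outside the copies. The 7 copies together held 25685, 5341 and 50215 counts in stimulated and 21751, 15173 and 8717 counts in sham libraries, or 2.68% to 14.1% of the counts on the copies and their genes. With each copy added to its gene, mt-Nd3 moved from a mean of 123 to 379 RPKM and remained the lowest mRNA, and the range over the 13 mRNAs narrowed from 33.0-fold to 10.7-fold. mt-Nd4l in sham replicate 3 moved from 262 to 623 RPKM, inside the range of the other libraries (564 to 1035 RPKM). mt-Atp6 and mt-Co1 stayed first and second by their means, with 4076 and 3726 RPKM, but mt-Atp6 was then above mt-Co1 in 4 of 6 libraries, and below it in stimulated replicate 3 (3964 against 4671 RPKM) and sham replicate 2 (2880 against 3338 RPKM).

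**Figure D3:**
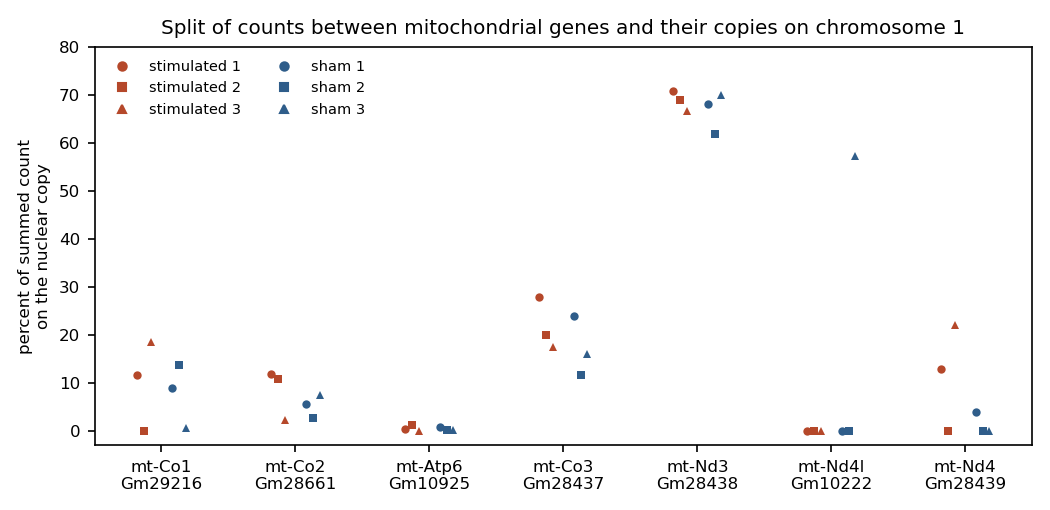
Percent of the summed count of a mitochondrial gene and its chromosome 1 copy that the table gives to the copy, for 7 pairs and each library (red stimulated, blue sham; circles, squares and triangles are replicates 1, 2 and 3). The copy of mt-Nd3 holds 61.8% to 70.9% in all libraries, whereas that of mt-Nd4l holds 57.2% in sham replicate 3 alone.

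The tRNAs spanned a 67.9-fold range of means and stood on few reads, from 2 to 1047 transcript-level reads per gene and library. The 4 highest were mt-Tg (glycine) at 518 RPKM, mt-Tv (valine) at 373, mt-Th (histidine) at 275 and mt-Ty (tyrosine) at 272. The 4 lowest were mt-Tl2 (leucine) at 7.63 RPKM, mt-Ts2 (serine) at 14.5, mt-Td (aspartate) at 27.0 and mt-Tr (arginine) at 30.9. mt-Tg had 715, 733 and 403 RPKM in stimulated and 619, 220 and 418 RPKM in sham libraries. mt-Tl2, a neighbour of mt-Ts2 with which it shares 1 base, had 7.74, 8.05 and 11.9 RPKM in stimulated and 5.55, 1.61 and 10.97 RPKM in sham libraries. Deposited TPM values put the tRNAs closer to the mRNAs, because the effective length used for every tRNA was 3 bases in every library. It was 250 for mt-Co2, mt-Atp6, mt-Co3 and mt-Nd6 and 10 for mt-Atp8. Annotated lengths were therefore used for levels.

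Plus-strand and minus-strand tRNAs varied differently across libraries. The 8 minus-strand tRNAs held 34.4%, 24.4% and 46.9% of tRNA counts in stimulated replicates 1 to 3 and 36.97%, 46.5% and 33.3% in sham replicates 1 to 3. Stimulated replicate 2 gave the lowest share, and stimulated replicate 3 and sham replicate 2 the highest. mt-Nd6, from the same strand, took 2.26%, 1.48% and 2.68% of the mRNA counts in stimulated and 2.21%, 1.92% and 1.69% in sham libraries, lowest and highest in the same 2 stimulated libraries. By counts of the tested genes, stimulated replicate 3 was the largest library (23658612) and sham replicate 2 the smallest (17454138). Summed over the plus-strand tRNAs and not scaled to library size, the counts were 2817, 2775 and 2911 in stimulated and 2459, 972 and 2127 in sham libraries. Whether strand was used in counting is not given in the sources used here, so RNA of the opposite strand may be included in each of these values.

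**Figure D4:**
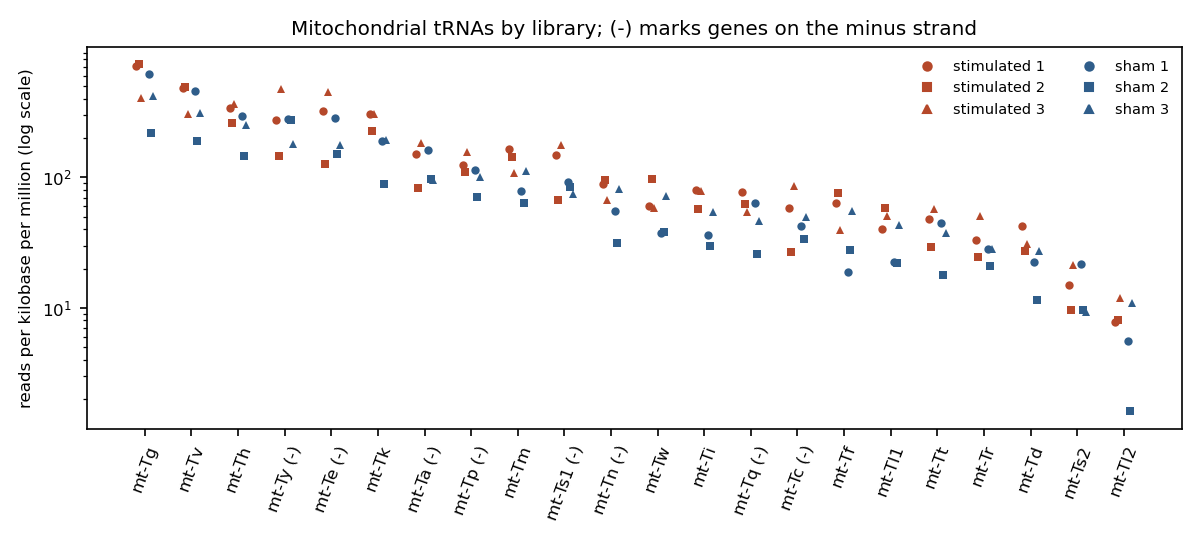
RPKM (log scale) of the 22 mitochondrial tRNAs, ordered by their mean, for 3 stimulated (red) and 3 sham (blue) libraries; circles, squares and triangles are replicates 1, 2 and 3, and (-) marks minus-strand genes. Means run from 518 for mt-Tg to 7.63 for mt-Tl2, and the sham replicate 2 square is often the lowest point.

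The comparison of stimulated with sham mice asks what an acute bout of contraction does to the RNA of these cells. No mitochondrially encoded gene passed an adjusted p of 0.05 (edgeR quasi-likelihood test, Benjamini-Hochberg over all 26559 genes): 0 of 37 were called, beside 0% of all genes. At an unadjusted p under 0.05 the test picked 1 member, mt-Tk, which was higher in stimulated libraries, against 2.64% of all genes in that direction, and 0 members that were lower, against 4.41% (7.05% of all genes in either direction). limma voom called 0 of the 37, and DESeq2 0 of the 34 members to which it gave an adjusted p (3 tRNAs had none, mt-Td, mt-Ts2 and mt-Tl2). Over all genes DESeq2 called 71 genes higher (0.378%) and 158 lower (0.84%) among the 18807 genes to which it gave an adjusted p, and voom called 0. The fold changes below are therefore values with their standard errors, in which no member was shown to differ between the groups. The SE of a member's log2 fold change was 0.29 to 0.78.

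All 22 tRNA genes had positive log2 fold changes, from 0.23 (mt-Ts2) to 0.86 (mt-Ti), with a median of 0.56. Of all genes tested, 48% had positive ones and the median was -0.02. The tRNAs share precursors and the same 6 libraries, so they are not 22 separate observations. The plus-strand tRNAs had a median of 0.57 and the minus-strand tRNAs one of 0.52. Library-size scaled values (CPM, TMM) show the spread behind these numbers. mt-Tk, the lysine tRNA, had 18.1, 13.3 and 20.1 CPM in stimulated replicates 1 to 3 and 10.7, 5.04 and 12.7 CPM in sham replicates 1 to 3. Its groups did not overlap, by a margin of under 1 CPM, and its log2 fold change was 0.86 (SE 0.37, adjusted p = 0.698 in edgeR's quasi-likelihood test). mt-Tq, the glutamine tRNA, was named after its values were seen because it was the other member whose groups did not overlap. It had 4.95, 3.99 and 3.93 CPM in stimulated and 3.87, 1.57 and 3.36 CPM in sham libraries, so its nearest libraries were almost level. By RPKM the groups of mt-Tq overlapped, with 76.6, 62.4 and 54.7 in stimulated and 63.2, 25.7 and 46.5 in sham libraries. In CPM, mt-Tk and mt-Tq, 2 of 37 members, stand beside 6.12% of all genes with separate groups and higher stimulated values. On that scale 0 members were separate and lower, beside 5.89% of all genes.

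Of the other tRNAs with the smallest p, mt-Ti (isoleucine) had 5.06, 3.55 and 5.44 CPM in stimulated and 2.18, 1.79 and 3.78 CPM in sham libraries, a log2 fold change of 0.86 (SE 0.39). mt-Tm (methionine), whose tRNA serves both initiation and elongation in mitochondria, had 10.4, 8.92 and 7.47 CPM against 4.66, 3.85 and 7.82 CPM, a log2 fold change of 0.71 (SE 0.34). For both, sham replicate 3 reached into the stimulated range. mt-Ts1 (serine), on the minus strand, had 9.38, 4.14 and 12.4 CPM against 5.42, 5.04 and 5.25 CPM, a log2 fold change of 0.72 (SE 0.40). Here it was stimulated replicate 2 that fell below every sham library. mt-Tg, with the most reads per length, stood at a log2 fold change of 0.58 (SE 0.38) and mt-Tv at 0.45 (SE 0.34). Both were lowest in sham replicate 2, at 13.1 and 11.5 CPM. That library was the lowest of all 6 in 14 of 22 tRNAs, and without it the tRNA median was 0.35, with 22 of 22 still positive. Stimulated replicate 3 was the highest in 13 of 22, and without it the median was 0.48, with 18 of 22 positive.

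The mRNAs had a median log2 fold change of 0.12, with 12 of 13 positive. This direction depended on single libraries. Stimulated replicate 3 was the highest of all 6 in 11 of 13 mRNAs, and without it the median was -0.11 and only 2 of 13 were positive. Without sham replicate 2, the lowest library for 7 of 13, the median was 0.02, with 7 of 13 positive. The largest values belonged to mt-Atp8, at 0.59 (SE 0.43), mt-Nd4l, at 0.51 (SE 0.33), mt-Co2, at 0.39 (SE 0.39), and mt-Co3, at 0.37 (SE 0.37). Leaving out 1 library at a time moved mt-Atp8 between 0.12 and 0.94 and mt-Nd4l between 0.30 and 0.83. mt-Atp8, the small ATP synthase subunit, had 409, 191 and 646 CPM in stimulated and 361, 223 and 244 CPM in sham libraries. mt-Co2, which carries the copper centre that receives electrons from cytochrome c, had 907, 569 and 1651 CPM in stimulated and 854, 752 and 778 CPM in sham libraries. Both genes were lower in stimulated replicate 2 than in any sham library and far higher in stimulated replicate 3, so the stimulated group spanned the whole sham group.

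mt-Nd4l had 195, 209 and 290 CPM in stimulated and 228, 153 and 107 CPM in sham libraries. Its lowest value was sham replicate 3, the library in which Gm10222 held most of the pair's counts. With copies summed into their genes, the log2 fold change of mt-Nd4l was 0.14 (SE 0.29) in place of 0.51. mt-Nd4 moved the other way, from -0.05 (SE 0.29) to 0.14 (SE 0.33), and mt-Co1 from 0.01 (SE 0.30) to 0.07 (SE 0.30). For the copies themselves the log2 fold change was 0.72 (SE 0.45, Gm28437), 0.77 (SE 0.49, Gm28661), 0.31 (SE 0.39, Gm28438), 0.68 (SE 1.86, Gm29216) and 0.22 (SE 1.44, Gm10925), and none was called. Gm28439 was at 0 in stimulated replicate 2 and in sham replicates 2 and 3, and its 172 and 451 CPM in the other stimulated libraries stood against 62.3 CPM in sham replicate 1.

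The rest of the mRNAs sat closer to 0. mt-Atp6 had a log2 fold change of 0.00 (SE 0.35), mt-Nd1 of 0.06 (SE 0.29), mt-Nd5 of 0.10 (SE 0.32), mt-Nd2 of 0.12 (SE 0.33), mt-Cytb of 0.12 (SE 0.31), mt-Nd3 of 0.20 (SE 0.42) and mt-Nd6 of 0.28 (SE 0.39). mt-Cytb, the core of complex III, shows the common pattern, with 1639, 1569 and 2559 CPM in stimulated and 1863, 1477 and 1949 CPM in sham libraries. mt-Nd6 repeated it at a lower level, with 381, 218 and 595 CPM against 427, 254 and 301 CPM. In each the stimulated group held both a value near or below the lowest sham library and the highest value of all. The log2 fold change was 0.23 (SE 0.34) for mt-Rnr1 and 0.09 (SE 0.33) for mt-Rnr2. Stimulated replicate 2 and sham replicate 3 had the shortest median effective transcript lengths of their groups (601 and 625 bases, against 674 to 741 in the other libraries). With both left out, the class medians were 0.34 for mRNAs, 0.42 for rRNAs and 0.97 for tRNAs, and 0 members were called.

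**Figure D5:**
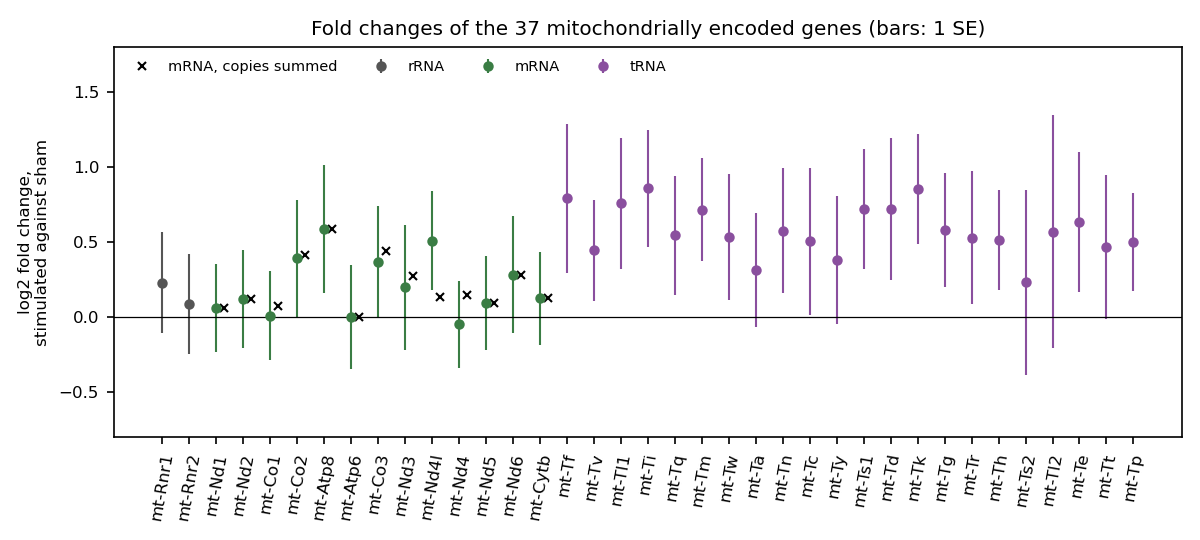
Log2 fold change, stimulated against sham, of the 37 genes with bars of 1 SE (edgeR, n = 3 against 3), grouped as rRNA, mRNA and tRNA in their order on chromosome M; crosses give the mRNA values with nuclear copies summed into their gene. All tRNA points lie above 0, between 0.23 and 0.86, and the mRNA points run from -0.05 to 0.59.

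The nuclear genes that build or serve the same machinery were read from lists, and 0 members of any list were called. Of all genes tested, 48% had positive fold changes. Of 36 nuclear-encoded complex I subunits 33 had negative log2 fold changes (median -0.23), of 4 complex II subunits 3 (median -0.19), of 9 complex III subunits 7 (median -0.20), of 12 complex IV subunits tested 10 (median -0.16) and of 16 ATP synthase genes 11 (median -0.10). Ndufa8, an accessory subunit of complex I, had the smallest p of these, with 7.74, 10.4 and 7.34 CPM in stimulated and 9.73, 18.8 and 18.9 CPM in sham libraries and a log2 fold change of -0.89 (SE 0.33, adjusted p = 0.646 in edgeR's quasi-likelihood test). Cox7a2 and Cox6c, complex IV subunits, had separate groups, at 6.41 to 9.24 against 9.55 to 12.0 CPM and 21.7 to 23.6 against 24.9 to 28.5 CPM (named as such after their values were seen). They were 2 of 12 tested, beside 5.89% of all genes with separate groups and lower stimulated values. Without sham replicate 3 the medians were -0.06 for complex I, -0.07 for complex II, -0.03 for complexes III and IV, and 0.13 for the ATP synthase genes.

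Of 17 genes for mitochondrial DNA maintenance and transcription 13 had positive fold changes, with a median of 0.19. Their summed level was 326, 319 and 323 CPM in stimulated and 275, 282 and 285 CPM in sham libraries, without overlap. This sum was picked out after its values were seen and carries no test. The group sums of every other nuclear list overlapped, such as 5620 to 6642 against 4082 to 6334 CPM for the aminoacyl-tRNA synthetase list. From transcript-level reads the median fold change of the 17 genes was 0.07. Tfam, which packages mitochondrial DNA and starts its transcription, had 30.6, 26.7 and 25.3 CPM in stimulated and 19.3, 17.6 and 22.3 CPM in sham libraries, a log2 fold change of 0.48 (SE 0.23). Twnk, the replicative helicase, had 0.56 (SE 0.29), and Top1mt, the mitochondrial topoisomerase, 0.57 (SE 0.32). These 3 of 17 genes were the members of the list whose groups did not overlap, beside 6.12% of all genes with separate groups and higher stimulated values.

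Of the 22 genes on the list of mitochondrial aminoacyl-tRNA synthetases, which charge tRNAs with their amino acids, 18 had positive fold changes (median 0.27). That list also holds Qrsl1, Gatb and Gatc, which are not synthetases. In 5 of the 22 the groups were separate and higher in stimulated libraries, beside 6.12% of all genes, and 1 of the 22 was higher at an unadjusted p under 0.05, beside 2.64% of all genes. That one was Rars2, the arginine enzyme, with 10.6, 11.3 and 10.7 CPM in stimulated and 5.02, 6.61 and 5.78 CPM in sham libraries, a log2 fold change of 0.90 (SE 0.26, adjusted p = 0.543 in edgeR's quasi-likelihood test). Its stimulated values hardly differed from each other, and its own substrate mt-Tr had 2.05, 1.48 and 3.45 against 1.64, 1.25 and 1.94 CPM. Ears2 had a log2 fold change of 0.58 (SE 0.30), Tars2 of 0.46 (SE 0.24) and Cars2 of 0.42 (SE 0.24). Of 33 genes for mitochondrial RNA processing and turnover 21 were positive (median 0.07). Among them were Lrpprc, which stabilises mitochondrial mRNAs, at 72.0, 65.7 and 61.6 against 58.4, 37.2 and 41.7 CPM (log2 fold change 0.54, SE 0.25), and Trmt10c, a subunit of mitochondrial RNase P, at 0.45 (SE 0.27).

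Of 78 mitochondrial ribosomal protein genes 42 were positive and 36 negative (median 0.01). Of 16 biogenesis regulators 10 were positive (median 0.07), with Ppargc1a, a coactivator of mitochondrial biogenesis, at 3.85, 6.60 and 4.24 against 3.24, 4.87 and 4.10 CPM (log2 fold change 0.27, SE 0.35). Of 17 genes of the mitochondrial unfolded protein response 10 were positive (median 0.02). Of 17 mitophagy and fission-fusion genes 12 were negative (median -0.17). The smallest p there was that of Pink1, a kinase that marks damaged mitochondria, with 30.3, 42.5 and 45.9 CPM in stimulated and 39.2, 85.6 and 78.9 CPM in sham libraries and a log2 fold change of -0.78 (SE 0.33, adjusted p = 0.695 in edgeR's quasi-likelihood test).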

How the data were processed

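Estimated counts per gene were deposited for all 6 libraries in 1 table. Each library also has a deposited transcript table that holds, per the file headers, estimated counts, TPM, length and effective length. Salmon 0.8.2, Trimmomatic 0.36 and the build GRCm38 are listed in the submitters' processing notes. Settings, the use of strand and any rRNA depletion are not given in the labels or headers. For the 37 genes the deposited gene counts equalled the deposited TPM after scaling each gene and each library by 1 constant, and they were 0.841 to 1.20 times the transcript-level reads.

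Gene counts were rounded, filtered with filterByExpr (minimum count 10, minimum total 15), scaled by TMM and tested with edgeR 4.0.16 (robust quasi-likelihood F test, R 4.3.3), using group as the single term. Benjamini-Hochberg adjusted p-values were called at 0.05. The SE is the log2 fold change divided by the square root of F. RPKM used transcript-level reads and annotated lengths. Copies were found with blastn 2.17.0 among GENCODE transcripts (identity at least 85%), and those at 99% or more over at least 200 aligned bases were treated as near-identical. DESeq2 1.42.0, limma voom (limma 3.58.1) and other settings served as alternatives, 2 of them (copies summed; both short-length libraries left out) chosen after seeing the data. The tests were tried on simulated counts. DESeq2 gave an adjusted p for 18807 genes. No library was a duplicate, since replicates differed by a chi-square of 42.3 to 156 per gene. Whether each library is 1 mouse rests on the stated group size of 3; otherwise p-values measure only the spread between these samples.

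Named were all mRNAs and rRNAs, the 4 tRNAs with the highest and the 4 with the lowest mean TPM, and the 4 with the smallest p. Up to 4 genes per nuclear list were taken by p (mean log2 CPM at least 1), of which the text names some. The rule for copies was a mean CPM of at least 1, but only the near-identical copies were described. Listed copies without such a match, among them Gm13340 (97.6% identical to mt-Co1), were left out. The members and lists were chosen with earlier results of these data known.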

Additional observations from a re-analysis of the deposited data

How the results depend on the processing

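None of the members tested in each alternative was called (34 of the 37 had an adjusted p in DESeq2, 35 passed the filter of 1 CPM in 3 libraries), and the smallest adjusted p of a named member was 0.362, for a tRNA without sham replicate 3. Over all genes, 0 were called in the reported fit, 229 by DESeq2, 3 with RLE size factors, 109 with no filter, 1 with transcript reads summed per gene and 3 at a threshold of 0.1; with each library left out the count was 0 to 1. The replicate block called 0 genes. No pairing of samples by replicate number is given in the sources used here. Correlations of deviations were 0.32, -0.21 and -0.01 for numbers 1 to 3. With 3 libraries per group these values can neither show nor exclude a pairing, so no conclusion is drawn from the block fit. Of 268 single-gene values in settings other than leaving out a library, 7 changed sign, all near 0: mt-Atp6 (-0.00043 scaled without mitochondrial genes, -0.0020 with a filter of 1 CPM in 3 libraries, -0.0052 from transcript reads) and mt-Nd4 (0.0047 with no filter, 0.032 from transcript reads, 0.14 with copies summed, 0.065 without both short-length libraries).

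With each library left out in turn, the log2 fold change ranged from -0.030 to 0.24 for mt-Rnr2, -0.12 to 0.19 for mt-Nd1, -0.11 to 0.32 for mt-Nd2, -0.12 to 0.17 for mt-Co1, -0.11 to 0.69 for mt-Co2, -0.20 to 0.37 for mt-Atp6, -0.075 to 0.67 for mt-Co3, -0.38 to 0.55 for mt-Nd3, -0.23 to 0.072 for mt-Nd4, -0.10 to 0.24 for mt-Nd5, -0.13 to 0.58 for mt-Nd6, -0.14 to 0.27 for mt-Cytb, -0.20 to 0.73 for mt-Ty and -0.18 to 0.68 for mt-Ts2. It stayed positive but moved from 0.12 to 0.94 for mt-Atp8, 0.30 to 0.83 for mt-Nd4l, 0.04 to 0.39 for mt-Rnr1, 0.17 to 0.71 for mt-Tv, 0.27 to 0.89 for mt-Tg, 0.13 to 0.78 for mt-Tr and 0.13 to 1.39 for mt-Tl2. The medians ranged from -0.11 to 0.32 (mRNAs), 0.04 to 0.30 (rRNAs), 0.35 to 0.72 (tRNAs), -0.36 to -0.06 (complex I) and -0.21 to 0.13 (ATP synthase, positive without sham replicate 3).

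The rRNA median was 0.42 without both short-length libraries. Shares depend on the denominator. Of protein-coding counts, mRNAs took 2.80% (stimulated) and 2.53% (sham), rRNAs 17.3% and 15.1%, and tRNAs 0.0340% and 0.0221%; of TPM, mRNAs took 0.391% and 0.403%, rRNAs 1.02% and 1.17%, and tRNAs 0.323% and 0.276%. Low tRNA reads limit mt-Tl2 and mt-Ts2 most.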
